A study of Mus musculus with 8 samples.

Results

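The embryonic mouse eye was compared with the cortex at E12.5, 12.5 days into gestation, by setting the eye array against the cortex array of an 8-array series. Each tissue had 1 array, so the comparison used 2 arrays of the 8. Eye and cortex were dissected from 3 Sv129s6 embryos of mixed sex, with no treatment and no engineered allele given in the labels. RNA from 3 sets of experiments had been pooled and labelled with Cy3 from 50 ng, so the spread between embryos was not measured and no p-value can be given. The other arrays were a diencephalon/hypothalamus array from the same strain and stage, used below as a further tissue, and 5 arrays of differentiating embryonic stem cells. The series asked how the profiles of the cultured cells relate to those of the embryonic tissues, and the eye and cortex arrays are its tissue endpoints.

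At this stage the eye is a composite of tissues with different origins. The lens has pinched off from the surface ectoderm and its posterior cells elongate into fibres, which fill with crystallins, the soluble proteins that give the lens its refractive power. The neural retina, an outgrowth of the forebrain, consists mostly of dividing progenitors and the earliest ganglion, horizontal and cone cells. The outer layer of the optic cup forms the retinal pigment epithelium, which makes melanin. Neural crest and mesoderm around the cup give rise to the cornea, sclera, eyelid tissue and eye muscles. The cortex at the same age is a sheet of dividing radial progenitors covered by the earliest glutamatergic neurons. A dissected tissue is a mixture, and on these arrays fewer cells of a type and less RNA per cell cannot be told apart.

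Signals are given as a level on a scale where the 75th percentile of the array is 100, and they are compared only between arrays for the same probe. A gene was read from its brightest probe over the 8 arrays and counted as detected where it was well above background on the brighter of the eye and cortex arrays. It was called higher or lower in eye where the log2 difference in signal, eye minus cortex, reached 1, which is a 2-fold change. Where the dimmer array was not well above background, the fold was taken against the floor of that array, the smallest signal its scanner file still marks as clear of background (or the gene's own signal where larger), and is written as "at least". The scanner's error model gave a median error of 0.20 for the log2 difference of a gene measured on both arrays; this covers measurement on 1 pool, not variation between embryos.

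Of 27434 detected genes, 3559 (13.0%) were higher and 2012 (7.33%) were lower in eye, with a median log2 difference of 0.02. The fold was a lower limit for 957 of the higher and 295 of the lower genes. Among the 23231 genes that cleared background in both tissues, 2602 (11.2%) were higher and 1717 (7.39%) were lower. A difference of at least 10-fold was reached by 481 higher and 202 lower genes. Of the called genes, 63.9% were higher in eye, but this share was 51.1% after quantile scaling and 25.7% after scaling to the array median, which moved the median of all genes by -0.44. The balance of higher against lower genes over the whole array therefore depended on the scaling. None of the called differences of the 201 genes named by rule changed sign under any alternative that recomputed differences and still detected the gene. These genes were picked for large differences on the same 2 arrays. A change of sign was therefore unlikely from the start, and its absence is no test of the differences. Defining markers stood on the labelled side: Cryaa of lens and Rax of retina were high in eye and low in cortex, and Emx1 and Tbr1 of cortex the reverse. The 2 arrays also differed in depth: 75.0% of spots were well above background for eye and 62.6% for cortex. Olfactory and vomeronasal receptor genes, which neither tissue is known to use, were well above background for 24.5% of 1358 genes on the eye array and 13.0% on the cortex array, although 17 of them were higher and 20 lower in eye. By the barcodes in the file headers, both arrays were on the same slide, with the place numbers 1 and 4 for eye and 2 and 3 for cortex. The headers do not say which number is a row or a column. Tissue and place on the slide cannot be told apart.

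**Figure D1:**
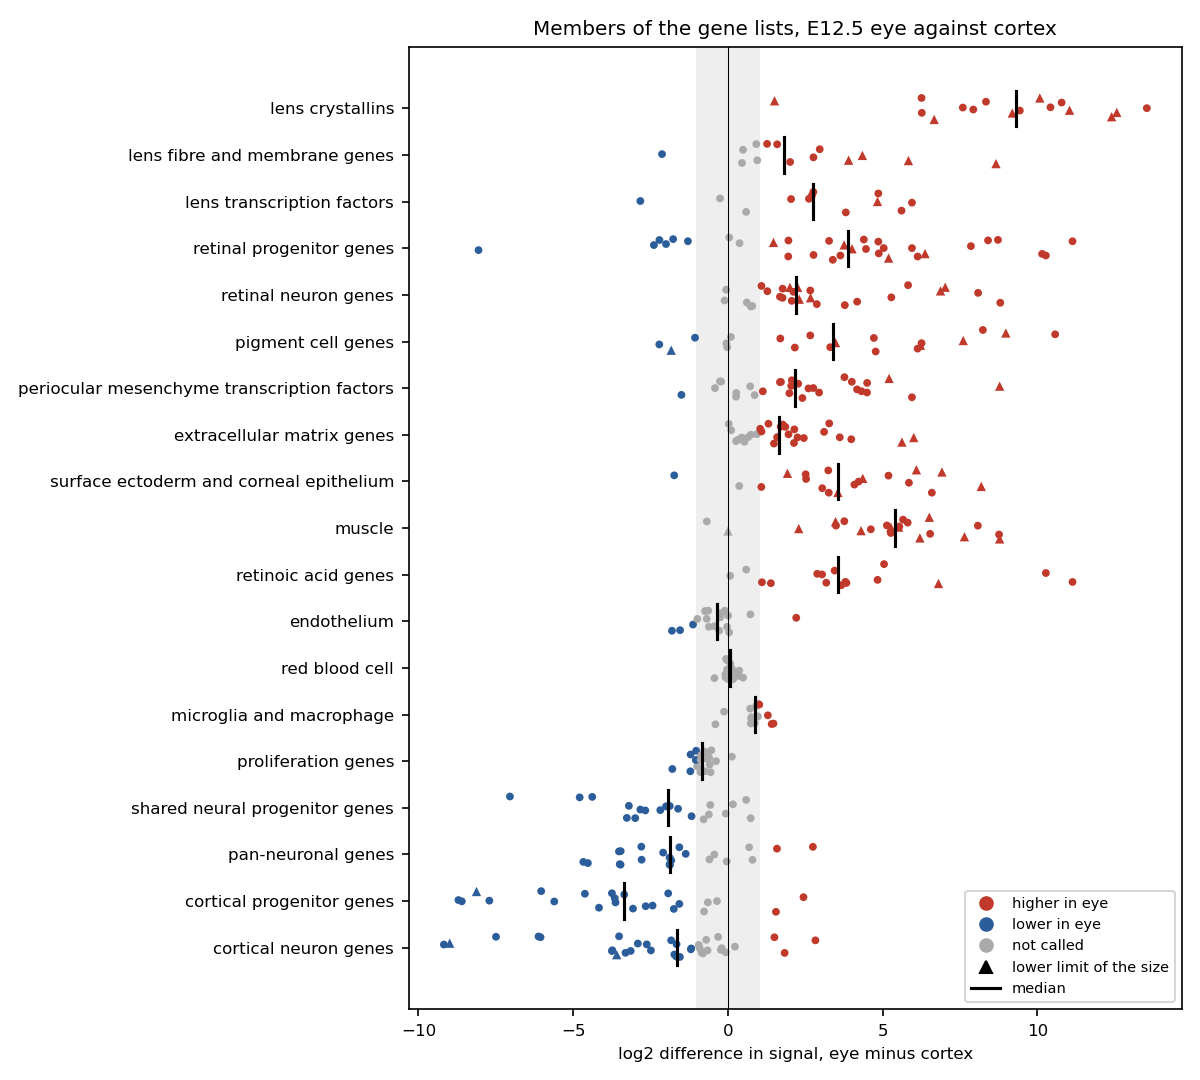
Log2 difference in signal, eye minus cortex, for each detected member of 19 gene lists, with 1 array a tissue. Circles are measured differences, triangles are lower limits of the size, black bars are list medians and the grey band holds differences under 2-fold. Lens, retinal, pigment, mesenchyme, ectoderm and muscle lists lie mostly to the right and the cortical lists mostly to the left, while red blood cell genes lie at 0.

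Crystallin genes separated the tissues most widely. Each of the 16 crystallins listed was higher in eye, with a median log2 difference of 9.31, against 0.02 over all detected genes and 13.0% of genes called higher. Under each of the other scalings and sources 15 were called higher and 0 lower. The Maf family of lens transcription factors binds a core in crystallin promoters, and the letters TGCTGA of that core were found on either strand in the 250 bases before the start of 10 of 15 crystallin promoters (66.7%), against 15.8% of 27025 promoters in the RefSeq table. The following are the 150 bases just before the RefSeq start site of Cryaa, Cryba1 and Crybb1. They had the widest differences among the crystallin genes that hold the letters within those bases. Cryge, with a wider difference than Cryba1, lacked the letters in its 250 bases, as did Crygf, Crygd, Crygb and Crybb2. The stretches are on the GRCm38.p6 build and read along the gene's strand. Capitals mark TGCTGA. The Cryaa stretch is chr17:31677781-31677930 on the plus strand, the Cryba1 stretch chr11:77725294-77725443 on the minus strand and the Crybb1 stretch chr5:112255670-112255819 on the plus strand.
Cryaa: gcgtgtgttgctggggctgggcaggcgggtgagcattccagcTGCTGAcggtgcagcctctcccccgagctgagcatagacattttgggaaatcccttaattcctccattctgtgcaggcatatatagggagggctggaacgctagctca
Cryba1: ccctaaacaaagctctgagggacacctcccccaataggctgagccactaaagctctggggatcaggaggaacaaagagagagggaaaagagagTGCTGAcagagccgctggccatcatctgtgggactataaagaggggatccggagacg
Crybb1: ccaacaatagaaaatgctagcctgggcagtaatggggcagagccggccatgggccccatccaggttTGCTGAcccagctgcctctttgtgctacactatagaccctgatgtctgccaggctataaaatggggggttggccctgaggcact
The capitals begin 108 bases before the start in Cryaa, 57 in Cryba1 and 84 in Crybb1. A match describes the letters of the window and is not a measured binding site.

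Cryaa, which encodes the chaperone alpha-A-crystallin, had the widest difference of all genes with a standard symbol. Its signal was 27119.8 in eye, against 2.28 in cortex, an 11869-fold difference with a log2 error of 0.27. The probe lies at chr17:31818550-31818609 on the mm9 build used by the array annotation. A further probe of Cryaa gave a log2 difference of 8.91, so the size, but not the direction, depended on the probe. In diencephalon/hypothalamus the Cryaa signal was 2.77, as low as in cortex. Cryab, the alpha-B-crystallin that is also made in heart and muscle, had 1419.7 in eye and 18.6 in cortex and was 76.4-fold higher. Cryaa was thus close to the background of the cortex array, while Cryab was clear of it on all 3 tissue arrays.

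The beta and gamma crystallins, the structural proteins of fibre cells, followed. Cryba1 had 8869 in eye, against 1.64 in cortex (at least 5393-fold), and the cortex signal was not well above background. Crybb1 had 2696 in eye, against 1.28 in cortex (at least 2103-fold). Crybb3 had 4085 in eye, against 5.92 in cortex (690.0-fold). All 3 were far above the array's 75th percentile in eye and close to background in cortex, and their diencephalon/hypothalamus signals were 17.8, 5.03 and 2.86. Cryba2 was at least 1079.8-fold higher and Cryba4 76.8-fold. Crybb2, which accumulates in the lens later, around birth, had the smallest difference of the list, with 3.63 in eye and 0.638 in cortex (at least 2.84-fold). Among the gamma crystallins, Cryge had 7744 in eye, against 1.22 in cortex (at least 6053-fold), Cryga had 6038 in eye, against 4.4 in cortex (1371-fold) and Crygc had 5159 in eye, against 2.93 in cortex (1761-fold). These gamma genes lie side by side on chromosome 1 and are near copies, so a probe may read more than its own gene and their order among themselves is uncertain. Crygc's probes, for example, ran from a log2 difference of 8.62 to 12.03, and those of Crygf from 8.34 to 11.24. Crygn, a more distant relative, was at least 583-fold higher and Crygs 243-fold.

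Lens fibre genes were in part higher in eye and in part not detected. Of 17 fibre and membrane genes, 14 were detected, 9 were higher and 1 was lower, with a median of 1.80 over those detected and 1.26 over all on the array. Mip, the lens water channel, had 518 in eye, against 1.04 in cortex (at least 405-fold). Lim2, a fibre membrane protein, was at least 56.9-fold higher, and the lens connexins Gje1 and Gja3 were higher by at least 20.3-fold and 7.81-fold. Bfsp1, which encodes a beaded filament protein of fibre cells, was 6.78-fold higher at 75.5 in eye and 11.1 in cortex. Dnase2b, the nuclease that degrades fibre nuclei late in maturation, was not detected on either array, nor were Lgsn and Aqp5. Wnt7b, a Wnt ligand, was 4.38-fold lower in eye (19.6 in eye and 86 in cortex). Caprin2, Sparc, Tmod1 and Ank2, which are used in many tissues, differed by less than 2-fold by the probes used.

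Transcription factors of the lens were mostly higher in eye. Of 12 listed, 9 were higher and 1 lower, and with the mean of all probes 10 were higher. Foxe3, needed for the lens epithelium, had 36.3 in eye, against 1.29 in cortex (at least 28.2-fold). Pitx3, whose loss arrests the lens in mice, had 117 in eye, against 2.41 in cortex (48.8-fold). Both were at background or close to it in cortex. Prox1, which drives fibre elongation, was 6.77-fold higher, and Tfap2a, of the lens and corneal ectoderm, 14-fold. Maf, the crystallin activator whose core was marked above, had 456 in eye and 69.5 in cortex, a 6.56-fold difference. Sox1, a lens factor that neural progenitors also use, was 7.12-fold lower in eye at 70.0 in eye and 498 in cortex, although its other probe gave a log2 difference of -0.48. Pax6, the shared master factor of eye and cortex, had 509.5 in eye and 339 in cortex and was not called by the probe used.

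**Figure D2:**
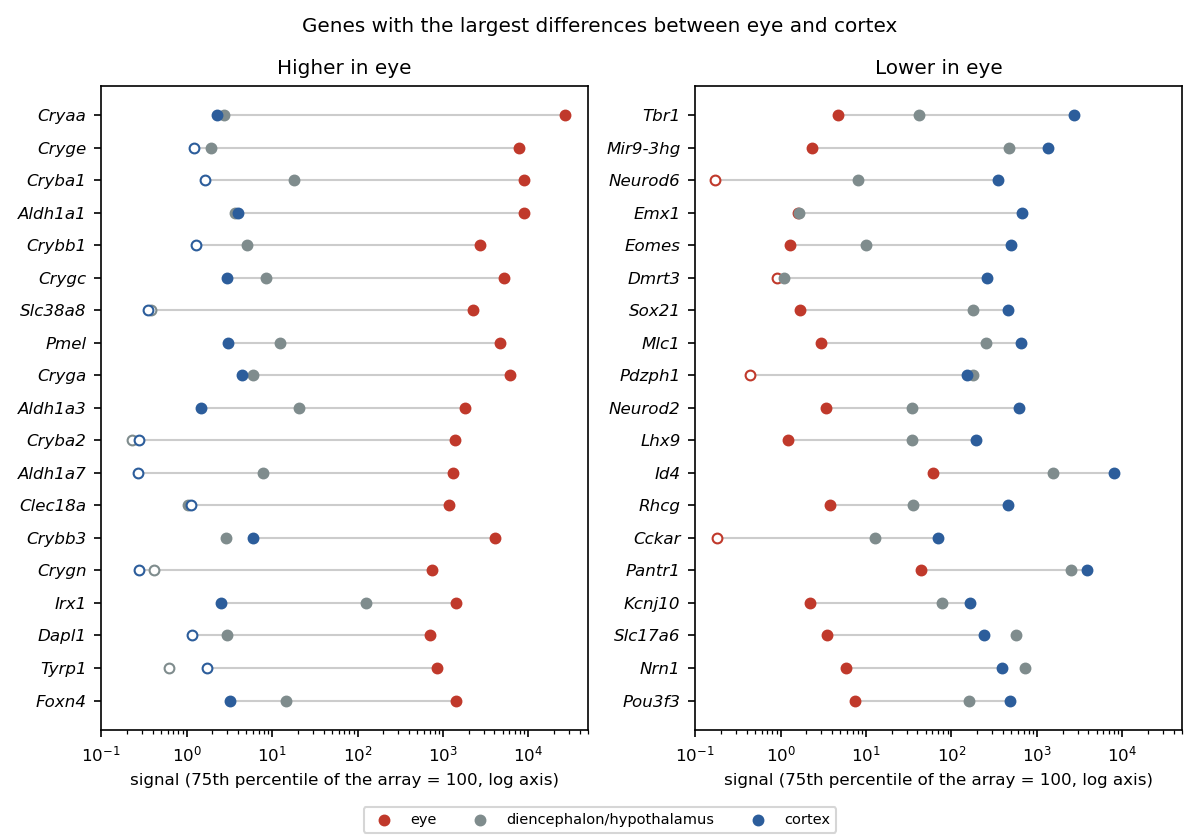
Signal on the eye, diencephalon/hypothalamus and cortex arrays (log axis, 75th percentile of each array at 100) for 19 of the 20 genes with the largest differences in each direction; hollow circles were not well above background. Crystallin genes fill much of the left panel, and several genes of the right panel, such as Nrn1 and Slc17a6, are high in diencephalon/hypothalamus as well as in cortex.

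Retinal progenitor genes were likewise mostly higher in eye. Of 32 listed genes, 24 were higher and 6 were lower in eye, with a median of 3.88. Rax, the eye field factor, had 2304 in eye, against 9.99 in cortex (231-fold), and Six6, its partner in retina and hypothalamus, had 993 in eye, against 2.93 in cortex (339-fold). In diencephalon/hypothalamus the signals were 884 for Rax and 339 for Six6, so that both were shared with that tissue. Hmx1, a homeobox factor of the eye and cranial ganglia, was 423-fold higher at 1461 in eye and 3.46 in cortex. The fibroblast growth factor genes Fgf9 and Fgf15 of the early retina were 70.0-fold and 32.7-fold higher.

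Genes of the dorsal and ventral retina fell on both sides; those named next were picked after their values were seen. Tbx5, Tbx2 and Tbx3, T-box factors of the dorsal optic cup, were higher by at least 82.5-fold, 21-fold and 22-fold. Vax2 and Vax1, ventral homeobox factors, were higher by 10.5-fold and at least 13.5-fold. Bmp4, the dorsal signal, had 555 in eye and 144 in cortex (3.86-fold). Dorsal and ventral factors were therefore both measured in the eye pool. The ephrin genes Efnb1 and Efnb2, also dorsal in the retina, went the other way: they had 807 and 912 in eye, against 4241 and 2237 in cortex, and were 5.25-fold and 2.45-fold lower. The Efnb2 difference was under the 2-fold threshold with quantile scaling (a log2 difference of -0.94), in the deposited table (-0.97) and with the mean of all probes (-0.50). The other members lower in eye were Sox21 (267-fold, with a further probe at a log2 difference of -1.25), Optc (4.64-fold), Sfrp1 (4-fold) and Gas1 (3.42-fold, but a log2 difference of -0.79 with the mean of all probes). Pax2, of the optic stalk, had 2.77 in eye and 2.14 in cortex, and with Ephb2 it was not called.

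Retinoic acid genes held some of the widest differences. Retinoic acid, made from vitamin A by aldehyde dehydrogenases, acts on the optic cup and the mesenchyme around it. Aldh1a1, the dorsal retinal synthase, had 8909 in eye, against 3.97 in cortex (2246-fold), and Aldh1a3, the ventral one, had 1804 in eye, against 1.46 in cortex (1236-fold). Both were near the low end of the cortex array, and in diencephalon/hypothalamus they had 3.71 and 20.9. Aldh1a7, a near copy of Aldh1a1, was at least 1028-fold higher and may share its signal. Of 17 genes of the pathway, 14 were higher and 0 lower in eye, with a median of 3.55. They included the degrading enzymes Cyp26a1 (at least 112-fold) and Cyp26b1 (33-fold), the retinol uptake receptor Stra6 (28.5-fold) and the binding protein Crabp1 (14.2-fold). Synthesis, breakdown, transport and receptor genes thus stood higher side by side. Crabp2 had 6355 in eye and 4224 in cortex and Rbp3, the retinal carrier of later photoreceptors, had 365 in eye and 347 in cortex; neither was called. Cyp26c1 was not detected.

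Genes of the earliest retinal neurons were higher in eye. Of 28 listed, 26 were detected, 21 were higher and 0 lower, with a median of 2.18 over those detected and 2.09 over all on the array. Atoh7, which makes progenitors competent to become ganglion cells, had 3317 in eye, against 12.2 in cortex (271-fold), and its other probe gave 8.11 on the log2 scale against 8.08. Pou4f2, the ganglion cell factor it activates, had 149.5 in eye, against 0.306 in cortex (at least 117-fold). Isl1, which acts with Pou4f2, had 98.9 in eye, against 1.75 in cortex (56.5-fold). Atoh7 and Pou4f2 were low in diencephalon/hypothalamus, at 26.8 and 0.171, while Isl1 was brighter there than in eye, at 632. Foxn4 and Onecut1, factors of the horizontal and amacrine lineages, were 446-fold and at least 129.7-fold higher; for Onecut1 the other probe gave a log2 difference of 2.20. Thrb, the thyroid hormone receptor gene of cone precursors, was 38.8-fold higher at 72.3 in eye and 1.86 in cortex. Crx, the photoreceptor factor, was faint at 6.31 in eye and 0.276 in cortex (at least 4.94-fold). Olig2, Klf7, Pou4f1, Prdm1 and Rxrg were not called, but Rxrg, another cone precursor gene, had probes that ran from a log2 difference of 0.74 to 5.99. Barhl2 and Chrnb3 were not detected.

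Pigment cell genes formed a further eye group. Of 23 listed, 20 were detected, 14 were higher and 3 were lower, with a median of 3.39 over those detected and 2.66 over all on the array. Mitf, the master factor of pigment cells, binds the M-box of its targets, and the letters CATGTG of the M-box core were found on either strand in 10 of 17 pigment gene promoters (58.8%), against 12.2% of all promoters. Of the 9 pigment genes higher in eye that have a promoter entry, 7 held these letters, while Mitf itself and Tfec did not. Of the other 8, which were not called higher, Rpe65, Rlbp1 and Trpm1 held them. Those 8 include Rpe65, Rgr and Lrat, which were not detected, and Trpm1, whose difference depended on the probe. The 2 groups are therefore not a clean contrast of higher and not higher genes. For 3 of the 7 higher genes with the letters the 150 bases before the start are given, the widest differences among those with the letters there. CATGTG, or CACATG for a match on the opposite strand, is in capitals. The stretches are those of the melanin enzymes Tyrp1 and Tyr and of Mc1r, the melanocortin receptor that raises Mitf activity. They are credited to RefSeq on GRCm38.p6: Tyrp1 at chr4:80834063-80834212 (plus strand), Tyr at chr7:87493513-87493662 (minus strand) and Mc1r at chr8:123406932-123407081 (plus strand).
Tyrp1: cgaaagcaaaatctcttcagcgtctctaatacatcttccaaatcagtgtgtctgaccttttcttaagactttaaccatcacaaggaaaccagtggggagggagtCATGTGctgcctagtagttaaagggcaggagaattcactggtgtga
Tyr: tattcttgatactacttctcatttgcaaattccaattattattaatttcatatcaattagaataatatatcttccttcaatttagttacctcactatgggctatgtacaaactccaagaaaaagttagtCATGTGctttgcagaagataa
Mc1r: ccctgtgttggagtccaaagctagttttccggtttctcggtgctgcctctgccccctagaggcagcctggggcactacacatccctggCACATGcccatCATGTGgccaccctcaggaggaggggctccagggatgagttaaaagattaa
The capitals begin 46 bases before the start in Tyrp1 and 21 in Tyr, and Mc1r holds 2 matches, the farther one 62 bases before the start.

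Pmel, which encodes the fibril protein of the melanosome, had 4687 in eye, against 3.08 in cortex (1522-fold). Tyrp1, an enzyme of melanin synthesis, had 862 in eye, against 1.71 in cortex (at least 505-fold), and Tyr, the tyrosinase that starts the pathway, had 272 in eye, against 3.56 in cortex (76.4-fold). Mlana, Oca2 and Slc45a2, of the melanosome membrane, were higher by 302-fold, at least 194-fold and at least 74.5-fold. The enzymes and the melanosome proteins were thus higher together, and Mitf itself had 1191 in eye, against 45.4 in cortex (26.3-fold), with both of its probes between 4.71 and 5.06 on the log2 scale. Dct, the remaining melanin enzyme, stood out after its values were seen: it had 5089.7 in eye but also 1576 in cortex and only 15.7 in diencephalon/hypothalamus, so its difference was 3.23-fold. Dct is also known from telencephalic progenitors.

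Genes of the mature pigment epithelium were mostly not detected or not higher. Rpe65 and Lrat, of the visual cycle, and Rgr were not detected, and Rlbp1 had 217 in eye and 203 in cortex and was not called. Best1, a chloride channel of the pigment epithelium, was at least 3.56-fold lower in eye, at signals near background (0.425 in eye and 2.46 in cortex). Ttr, which carries retinol and thyroxine and is made by pigment epithelium and choroid plexus, was 4.65-fold lower (129.5 in eye and 603 in cortex), and Kit, the receptor of melanoblasts, 2.09-fold lower. Ednrb was not called. Trpm1, a melanocyte channel gene, shows how much a probe can matter: the probe used had 55.8 in eye and 56.7 in cortex, whereas the log2 differences of its 4 probes ran from -0.02 to 11.49.

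**Figure D3:**
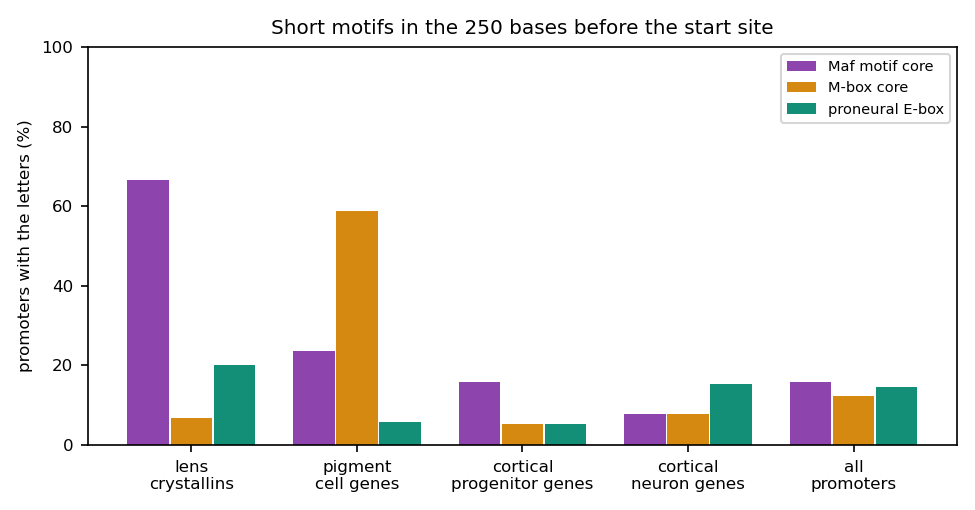
Share of promoters (percent) holding TGCTGA (Maf motif core), CATGTG (M-box core) or CAGATG (proneural E-box) on either strand in the 250 bases before the RefSeq start site, for 4 gene lists and for all promoters. The Maf core stands at 66.7% in crystallin promoters and the M-box core at 58.8% in pigment promoters, against 15.8% and 12.2% of all promoters.

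The proneural E-box CAGATG, which bHLH factors such as Neurog2 and Neurod2 bind, was found in 1 of 19 cortical progenitor promoters (5.26%) and 4 of 26 cortical neuron promoters (15.4%), against 14.5% of all promoters. TGCTGA was found in 3 of the same 19 (15.8%) and 2 of the 26 (7.69%). The cortical lists therefore stood near or below the general share of each of these letters. Overlapping matches of different motifs were each counted.

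Genes of the mesenchyme around the optic cup were mostly higher in eye. Of 28 transcription factors and receptors of periocular mesenchyme, 20 were higher and 1 was lower in eye, with a median of 2.17. Foxc2, a forkhead factor of these cells, had 403 in eye, against 17.9 in cortex (22.6-fold). Twist2 and Twist1, bHLH factors of mesenchyme, had 367 and 264 in eye, against 5.96 and 13.2 in cortex. In diencephalon/hypothalamus Foxc2 was at 63.9. Alx1, of cranial neural crest, was 22.5-fold higher and Osr2 at least 36.9-fold. Msx1 was 2.83-fold lower in eye (36.1 in eye and 102 in cortex). Foxl2 and Eya1 were far above the 75th percentile of both arrays, with 2742 in eye and 2274 in cortex for Foxl2 and 5009 in eye and 5990.4 in cortex for Eya1, and with Alx4, Foxf2, Msx2, Prrx1 and Tbx18 they were not called.

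Matrix genes followed the same direction with smaller differences. Of 29 listed, 19 were higher and 0 lower, with a median of 1.65. Kera, which encodes the corneal proteoglycan keratocan, had 82.1 in eye, against 0.603 in cortex (at least 64.2-fold), and Col8a1, a collagen of corneal endothelium, had 63 in eye, against 0.304 in cortex (at least 49.2-fold). Neither was well above background in cortex. Fbln5 and Col12a1 were 15.8-fold and 12.2-fold higher, and Ogn and Fbn2 9.65-fold and 8.61-fold. The sizes of some depended on the probe. With the mean of all probes the log2 difference fell from 3.98 to 2.05 for Fbln5 and from 3.61 to 1.44 for Col12a1. For Fbn2 it rose from 3.11 to 3.45. The members not called included Col3a1, Dcn and Fn1, genes of general connective tissue that were picked after their values were seen: Col3a1 had 2105 in eye and 2067 in cortex, Dcn had 563 in eye and 469.5 in cortex and Fn1 had 5958 in eye and 4383 in cortex. These 3 were bright on the cortex array too, and whether meninges or skin lay within either dissection was not tested.

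Surface ectoderm and muscle genes were also on the eye side. Of 20 genes of surface ectoderm and corneal epithelium, 17 were higher and 1 was lower, with a median of 3.55. The epithelial keratin genes Krt15 and Krt5 had 372 and 636 in eye, against 1.09 and 6.61 in cortex, and 118 and 384 in diencephalon/hypothalamus. Cdh1, the epithelial cadherin, was at least 121-fold higher, Grhl2, an epithelial factor, at least 68.1-fold (its other probe gave a log2 difference of 1.00), and Krt18 36.4-fold. Krt12, the keratin of mature corneal epithelium, was not detected, and Elf3 was 3.33-fold lower. Trp63, the factor of stratified epithelium, was not called by the probe used, but its 4 probes ran from 0.37 to 6.62 on the log2 scale.

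Of 22 muscle genes, 20 were higher and 0 lower, with a median of 5.39. Actc1, cardiac actin, which embryonic skeletal muscle also makes, had 2478 in eye, against 5.72 in cortex (433-fold). Myog, the factor that starts muscle differentiation, had 255 in eye, against 1.07 in cortex (at least 199.6-fold). Myh3, embryonic myosin, had 1472 in eye, against 15.9 in cortex (92.5-fold), and Myl1 was 269.7-fold higher. All 22 genes were well above background in eye and 12 of them in cortex. Myf5, of early myoblasts, had 0.866 in eye and 0.307 in cortex and Mylpf 15.5 in eye and 24.8 in cortex, and neither was called. These muscle, ectoderm and mesenchyme levels moved with the lens and retinal genes in the same comparison, and their part in the other differences was not tested.

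Red blood cell genes differed little, and most vessel genes were not called. None of 16 red blood cell genes was called: Hbb-bh1, an embryonic globin, had 21725 in eye and 20349 in cortex, and Alas2, of haem synthesis, had 1420.0 in eye and 1388 in cortex. Of 18 endothelial genes, 1 was higher (5.56%, against 13.0% of all detected genes) and 3 were lower (16.7%, against 7.33%), with a median of -0.36. With median scaling 8 were lower. Cldn5, of tight endothelial junctions, was 2.92-fold lower, whereas the general vessel genes Pecam1 and Kdr were not called. Of 15 microglia and macrophage genes, 4 (26.7%) were higher, among them Trem2 (2.66-fold), at a median of 0.86, and with median scaling none was called. Of 8 genes of glia and Schwann precursors, 4 (50%) were higher and 1 (12.5%) was lower, and 4 of the 8 differences were lower limits. Among them Sox10, of neural crest glia and melanoblasts, was 15.9-fold higher at 115 in eye and 7.21 in cortex. The medians of red blood cell genes and of common reference genes lay close enough to that of all genes to turn sign with the scaling. Of 16 common reference genes, 1 was higher (B2m, 2.19-fold) and 2 were lower (Pgk1, 2.21-fold, and Tfrc, 2.1-fold), and sex-linked genes gave 0 higher and 0 lower of 5.

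**Figure D4:**
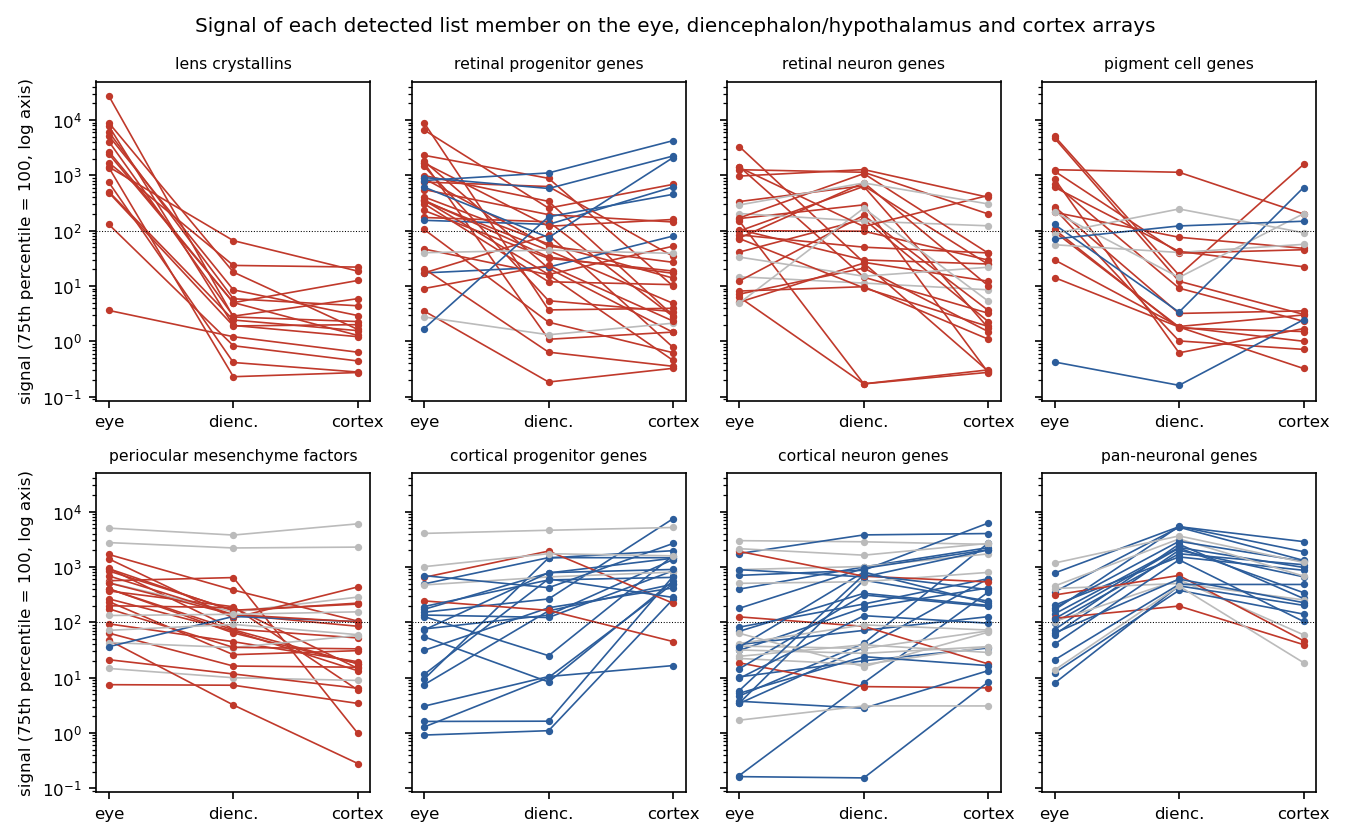
Signal (log axis, 75th percentile of each array at 100) of each detected member of 8 gene lists on the eye, diencephalon/hypothalamus and cortex arrays, with lines joining the values of a gene; red lines are genes called higher, blue lines lower in eye than in cortex. Crystallin genes are high in eye and low in both brain tissues, while pan-neuronal genes peak in diencephalon/hypothalamus and are lowest in eye for most members.

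On the cortical side, the progenitor genes of the dorsal telencephalon led. Of 23 cortical progenitor genes, 2 were higher and 18 were lower in eye, with a median of -3.35, against 7.33% of all detected genes called lower. Emx1, which is confined to the dorsal telencephalon, had 1.61 in eye, against 675 in cortex, 418-fold lower in eye with a log2 error of 0.27. Dmrt3, of the medial cortex, had 0.915 in eye, against 261 in cortex (at least 285-fold). In diencephalon/hypothalamus the signals were 1.63 for Emx1 and 1.1 for Dmrt3, as low or nearly as low as in eye. Eomes, of the intermediate progenitors that divide away from the ventricle, had 1.28 in eye, against 496 in cortex (388-fold). Pou3f3, a POU factor of cortical progenitors and neurons, was 65.6-fold lower (7.43 in eye and 487 in cortex).

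Some members of the list ran against it. Ngfr, the neurotrophin receptor gene that neural crest cells also use, was 5.43-fold higher in eye (243 in eye and 44.7 in cortex), and Nr2f2, a nuclear receptor of mesenchyme and ventral brain, 2.93-fold higher (645 in eye and 220.4 in cortex). Nr2f1 was far above the 75th percentile of both arrays (4020.4 in eye and 5144 in cortex), and with Lef1 and Hes6 it was not called.

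Genes of the first cortical neurons were lower in eye. Of 36 listed, 35 were detected, 3 were higher and 21 were lower, with a median of -1.66. Tbr1, the factor of preplate and deep-layer glutamatergic neurons, had 4.65 in eye, against 2697 in cortex, 580.1-fold lower in eye by a probe at chr2:61652093-61652152 (mm9); the other probe gave a log2 difference of -3.34. Neurod6 and Neurod2, bHLH factors of differentiating cortical neurons, had 0.17 and 3.41 in eye, against 352 and 615 in cortex, which made them at least 509-fold and 180.4-fold lower. Slc17a6, the vesicular glutamate transporter of early neurons, had 3.46 in eye, against 241 in cortex (69.6-fold). The first 3 were low in diencephalon/hypothalamus (41.6, 8.06 and 34.8), while Slc17a6 was highest there at 575. Nrn1, a neurite growth protein gene, and Fezf2, of subcerebral projection neurons, were 66.5-fold and 13.4-fold lower; the other probe of Nrn1 gave -1.97 on the log2 scale.

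Foxp2, Foxp1 and Mef2c, which act later in deep cortical layers and also outside the brain, were higher in eye by 7.09-fold, 3.56-fold and 2.83-fold. The Mef2c difference was under the 2-fold threshold with median scaling (a log2 difference of 0.99), with quantile scaling (0.98) and in the deposited table (0.82), which left 2 higher members. Sox5 had 2976 in eye and 2546 in cortex, and its 3 probes ran from a log2 difference of -2.82 to 0.22. Another 10 detected members, including Cux1, Cux2 and Nfia, were not called, and Unc5d was not detected.

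Genes used by neurons of all kinds were also lower in eye. Of 22 pan-neuronal genes, 2 were higher and 15 were lower, with a median of -1.88. Rbfox3, the NeuN gene, had 20.8 in eye, against 481 in cortex (23.1-fold). Myt1l, a neuronal fate factor, had 7.91 in eye, against 202 in cortex (25.5-fold). Dcx and Map2, of the young neuron's microtubules, were each 11.1-fold lower. The exceptions were the neurofilament genes Nefl and Nefm, with 310.1 and 118 in eye, against 46.3 and 39.4 in cortex, and both are known from long projecting axons such as those of ganglion cells. Gap43, Ncam1, Scg2, Snap25 and Syt1 were not called. For each of the 22 the diencephalon/hypothalamus signal was the highest of the 3 tissues; Stmn3, a microtubule regulator gene, had 166 in eye and 1879 in cortex, against 5369.9 in diencephalon/hypothalamus.

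Progenitor genes that retina and cortex share were mostly lower in eye. Of 20 shared neural progenitor genes, 0 were higher and 13 were lower in eye, with a median of -1.94. With the mean of all probes 1 was higher. Id4, an inhibitor of bHLH factors, had 60.6 in eye, against 8003 in cortex (132-fold), and Fabp7, the radial glial fatty acid binding protein, had 140.3 in eye, against 3887 in cortex (27.7-fold). Sox3, a progenitor factor, was 20.9-fold lower, and the Notch ligand genes Dll3 and Dll1 were 9.63-fold and 9.2-fold lower, though the other Dll1 probe was too close to background to give a difference. Lhx2, required for both the optic cup and the cortex, was far above the 75th percentile in both but 7.98-fold lower in eye (2019 in eye and 16114 in cortex). Hes1, Vim, Notch1, Msi1, Prom1 and Cdon differed by less than 2-fold by the probes used, as did Pax6. Of 22 proliferation genes, 5 were lower (Ccnd2 3.48-fold, and Aurkb, Ccna2, Kif11 and Mcm5 by 2.32-fold, 2.31-fold, 2.06-fold and 2.04-fold) and 0 higher, with a median of -0.85; with median scaling 20 of them were called lower and with quantile scaling 3. Mki67 had 3666 in eye and 6534 in cortex and Pcna 4809 in eye and 8024 in cortex.

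Regional genes at the edges of the cortex were split. Of 15 Cajal-Retzius genes, which mark the earliest cortical surface neurons, 3 were higher and 8 were lower; Lhx5 had 1.29 in eye, against 70.3 in cortex (54.7-fold), while Reln itself had 23.9 in eye and 22.8 in cortex and was not called. Of 21 genes of cortical hem and choroid plexus, 5 were higher and 10 lower. Wnt8b, a medial cortical Wnt gene, was 39.4-fold lower (3.53 in eye and 139 in cortex), and Foxj1, of ciliated cells, 27.5-fold lower, while Otx2, which the pigment epithelium and choroid plexus share, was 6.32-fold higher. Of 21 ventral telencephalic genes, 10 were higher and 4 lower in eye: Dlx1, also a retinal ganglion cell factor, had 73.8 in eye and 10.1 in cortex (7.31-fold), and Sp8 had 57.9 in eye and 899 in cortex (15.5-fold). The size for Dlx1 depended on the probe, with a log2 difference of 2.87 by the probe used and 1.06 with the mean of all probes. Nkx2-1 was not well above background in eye at 0.176 and low in cortex at 1.71, against 854 in diencephalon/hypothalamus. The interneuron gene Gad1 was likewise low, at 0.702 in eye and 1.62 in cortex, against 246 in diencephalon/hypothalamus. Gad1 was called lower in eye (a log2 difference of -1.20). It was under the 2-fold threshold with normexp (-0.22) and in the deposited table (-0.90).

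Beyond the lists, the 20 widest differences in each direction held genes of less familiar roles. Slc38a8, an amino acid transporter gene whose human mutations cause foveal hypoplasia, had 2218 in eye, against 0.353 in cortex (at least 1734-fold). Irx1, an Iroquois homeobox gene, had 1425 in eye, against 2.55 in cortex (559-fold). Clec18a and Dapl1 were at least 928-fold and at least 551-fold higher. These 4 genes were as far from cortex as many lens or pigment genes. Lower in eye were the long noncoding RNA genes Mir9-3hg (2.33 in eye and 1348 in cortex, 579-fold) and Pantr1 (43.6 in eye and 3851 in cortex, 88.4-fold). Mlc1 and Kcnj10, membrane protein genes of astroglia and their precursors, were 223-fold and 73-fold lower. Lhx9, a LIM homeobox gene of pioneer neurons, was 156-fold lower, and Pdzph1, Rhcg and Cckar were at least 221-fold, 122-fold and at least 99.6-fold lower. Of the 40 genes, 9 had more than 1 probe, and in 7 of those the probes stood over 2 log2 units apart.

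**Figure D5:**
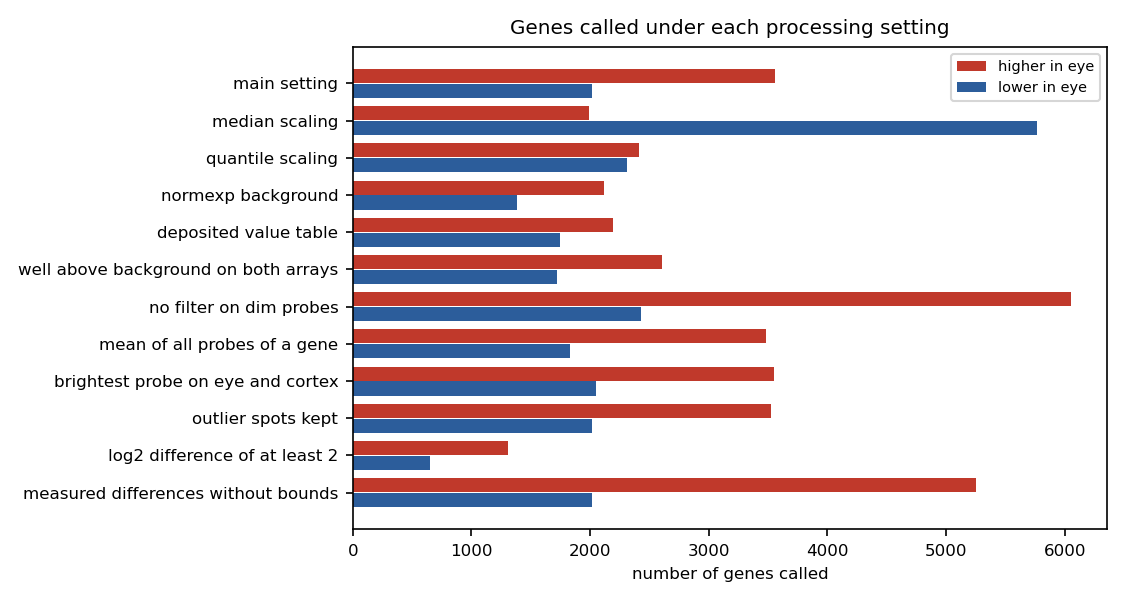
Number of genes called higher (red) and lower (blue) in eye under the main setting and 11 alternatives. The lower count runs from 654 to 5763 and the higher count from 1311 to 6054, with more lower than higher genes under median scaling alone.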

How the data were processed

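Arrays of E12.5 eye and cortex (1 each, RNA pooled) were compared. Per the file headers, the authors read them with Agilent Feature Extraction 10.7.3.1, and the headers place probes on mm9; the submitters' processing notes name version 9.1 and limma. The deposited intensity of each spot is background-subtracted and detrended within the array but not scaled between arrays. The deposited value table holds log2 values that the authors normalized; its background step is not given in the sources used here.

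From 62976 spots on an array, 3671 controls and the spots called outliers (155 on eye, 136 on cortex) were removed, leaving 55681 probes; no spot was saturated. Intensities were divided by the array's 75th percentile and taken to log2. Probes were named by RefSeq accession (28026) or the file's name (27655), giving 34758 genes, 11192 of them with several probes; the probe with the highest mean over 8 arrays was used. The number of arrays limits the precision, and with 1 array a side no test was run. Named genes were the 20 largest differences in each direction with a RefSeq symbol, up to 6 called members of each list in each direction and the defining members not called; others were picked after their values were seen, and the values of a few are not reported here. The members and lists were chosen with earlier results of these data known. The alternatives tried are given in the closing section. The calling step was tested on simulated data. Python 3.11.15, pandas 2.3.3, R 4.3.3 and limma 3.58.1 were used.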

Additional observations from a re-analysis of the deposited data

How the results depend on the processing

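Each count and list median was recomputed under 11 alternatives; the one with measured differences in place of lower limits was chosen after seeing the data. List medians are given relative to the median of all genes. The count of higher genes (3559) was 1992 with median scaling, 2117 with normexp background correction, 2195 in the deposited value table, 6054 with no filter on dim probes and 1311 at a log2 difference of at least 2. The count of lower genes (2012) was 5763 with median scaling and 654 at a log2 difference of at least 2. The crystallin median (9.29) was 8.99 with quantile scaling, 7.64 with normexp, 8.77 in the deposited table, 8.36 over genes clear of background in both tissues, 9.89 with no filter, 9.74 with the mean of all probes and with the brightest probe on eye and cortex, and 9.82 without lower limits. The retinal progenitor median (3.86) was 3.63 with quantile scaling, 3.21 with normexp, 3.65 in the deposited table and on both arrays, 4.39 with no filter and 4.32 without lower limits. The retinal neuron median (2.16) was 1.89 with quantile scaling, 1.51 with normexp, 1.78 in the deposited table and 1.93 on both arrays. The pigment median (3.37) was 2.82 with quantile scaling, 2.34 with normexp, 2.73 in the deposited table, 2.68 on both arrays, 2.62 with no filter and 3.90 without lower limits. Normexp gave 1.93 for periocular mesenchyme (2.15) and -1.33 for cortical neurons (-1.68), and the deposited table -3.13 for cortical progenitors (-3.37). These 7 list medians kept their direction under each alternative that recomputed them. Besides Efnb2, Gas1, Mef2c and Gad1, genes named above as called fell under the 2-fold threshold as follows, in log2 differences. With normexp they were Aurkb (-0.65), Best1 (-0.42) and Elf3 (-0.85). With median scaling they were B2m (0.62) and Trem2 (0.90). With quantile scaling they were Ccna2 (-0.88), Kif11 (-0.87), Mcm5 (-0.81) and Tfrc (-0.90). In the deposited table they were Best1 (-0.98), Mcm5 (-0.85) and Tfrc (-0.85), and with the mean of all probes Tfrc (-0.49). Of the 16 crystallins, 15 were called higher with median scaling, quantile scaling, normexp and in the deposited table. The smallest crystallin difference in the main setting was that of Crybb2 (at least 2.84-fold), and the next was that of Cryab (76.4-fold). The cause of these shifts was not tested. No paired analysis was possible because each tissue had 1 array, and no array could be left out. Signal over background limits what can be said of faint genes: for them a fold is a lower limit or is not given, and 1 pooled array a side leaves the spread between embryos unmeasured.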

Other observations

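Gene families were also read by the shared start of their symbols, over 297 such stems with at least 8 detected genes; those named here were picked after their values were seen. Over all detected genes, 13.0% were higher and 7.33% lower in eye. Of 18 detected genes whose symbols start with Fgf, 13 were higher and 0 lower in eye, at a median log2 difference of 1.53. Fgf10, a growth factor of mesenchyme and of the lacrimal gland bud, had 14.7 in eye, against 0.335 in cortex (at least 11.5-fold). Of 41 collagen genes (Col), 26 were higher and 0 lower, led by Col9a1, of the vitreous and cartilage, with 2110.1 in eye, against 11.1 in cortex (189.7-fold, though its other probe gave a log2 difference of 0.96). Of 17 Adamts genes, which encode proteases of the matrix, 10 were higher and 0 lower. The Wnt genes were split, 10 higher and 5 lower of 19: Wnt6, an ectodermal ligand, was 67.1-fold higher and Wnt7a 23.1-fold lower. On the other side, 16 of 37 kinesin genes (Kif) were lower and 1 was higher, and the lower ones included the axonal motors Kif1a (3.36-fold), Kif5c (3.19-fold) and Kif5a (3.15-fold). Of 22 genes whose symbols start with Sox, 9 were lower, among them the noncoding Sox2ot, and Sox10 alone was higher. These family counts are those of the main setting, and how far they depend on the scaling was not tested.

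All 6 Iroquois genes, which pattern retina and many other tissues, were higher in eye. Irx2 had 268 in eye, against 3.1 in cortex (86.4-fold), Irx3 37-fold, Irx4 12.9-fold, Irx5 at least 56.5-fold and Irx6 at least 10.6-fold. The genes of the secreted Dickkopf proteins Dkk1, Dkk2 and Dkk3, picked after their values were seen, were 18.9-fold, 15.9-fold and 17.6-fold higher.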
